A study of Mus musculus with 11 samples.

Results

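Kctd14, Fam151a, Med28, Trib2, Spon2 and Stac are 6 of the 23284 gene symbols counted by RNA sequencing in the mouse pancreatic acinar line 266-6. They were chosen by their measured change in read counts, picked for large changes with siRNAs against Arid1a in cells given EGF or in cells not given it, so their changes in those 2 comparisons describe the choice and carry no test here. Their responses to EGF were not part of the choice, although they rest on the same libraries, and were tested. All 6 had enough reads to be among the 13343 symbols tested (57.3%).

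The 266-6 line is a culture of transformed acinar cells, the cells that make the digestive enzymes of the pancreas, and the study combines EGF with loss of ARID1A to follow genes of cell plasticity. The 11 libraries form 4 groups: Arid1a siRNAs with EGF (n = 3), Arid1a siRNAs with vehicle (n = 3), control siRNA with EGF (n = 3) and control siRNA with vehicle (n = 2). Both groups with Arid1a siRNAs are labelled as Arid1a knockdown and both with control siRNA as Arid1a wild type. They were transfected for 48 h, with the Arid1a siRNAs at 25 nM and the control siRNA at a concentration that the labels do not clearly give, kept in medium free of serum overnight, and then given EGF at 40 ng/ml or its vehicle, 0.1% BSA, for 8 h. The Arid1a siRNAs came from Dharmacon and the non-targeting control siRNA, NT5, from Ambion. The number and sequences of the Arid1a siRNAs are not given in the sources used here, and all 6 libraries with Arid1a siRNAs carry the same label for them. Loss of Arid1a and any other effect of these siRNAs therefore cannot be told apart in these groups. The replicates are described as triplicates and duplicates without a word on separate cultures, so p-values cover only the spread among the libraries at hand and may reflect technical spread. Fewer cells with an RNA and less of it per cell cannot be told apart in such bulk samples.

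A small interfering RNA guides an Argonaute protein to transcripts that match it, which are then cut. The first bases of the guide, called the seed, can pair with many other transcripts and lower them as well, and double-stranded RNA can also set off interferon signalling. The protein made from Arid1a binds DNA as part of BAF, a SWI/SNF complex that moves nucleosomes, so its loss can itself change many genes.

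The 6 genes have unlike functions. Med28 is a subunit of Mediator, the large complex that links transcription factors to RNA polymerase II. Trib2 is a Tribbles pseudokinase that brings the ubiquitin ligase COP1 to substrates such as C/EBPα. Kctd14 belongs to the KCTD family of proteins with a BTB domain, several of which act as adaptors of cullin ubiquitin ligases. Spon2, also called mindin, is a secreted matrix protein that binds integrins and microbial surfaces. Stac is an adaptor with an SH3 and a cysteine-rich domain that binds voltage-gated calcium channels. Fam151a encodes a protein of little known function.

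To place the 6 genes beside the target, the longest run of bases that each gene's transcripts share with an Arid1a transcript on the same strand was read from GENCODE vM21 (build GRCm38). These runs are shown because the guide strand against Arid1a could match another transcript in full only inside such a run. Matches to the other strand of the siRNA were not searched. In lower case, 5′ to 3′, they were:
Kctd14: atacaaaaaaaccctg
Fam151a: ctggcaggattc
Med28: cccgccgccgccgccc
Trib2: tttttttttttttttt
Spon2: agcagaactcgc
Stac: gcagcctggaatcc
The run lies in the 3′ UTR of Kctd14 (chromosome 7) and of Trib2 (chromosome 12). In the other 4 genes it lies in coding sequence, on chromosome 4 for Fam151a, 5 for Med28 and for Spon2, and 9 for Stac. Where a gene has several runs of equal length, only the first found is given, and such ties were not counted.

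The shared runs measured 16 bases for Kctd14, Med28 and Trib2, 14 bases for Stac and 12 bases for Fam151a and Spon2. Those of Trib2 and Med28 are a run of a single base and a short repeat. Over the 11642 tested genes with a protein-coding transcript in GENCODE the median longest run was 14 bases, and 27% of genes had a run of at least 16 bases. A run of 19 bases or more, the length of a siRNA core, was found in 1316 genes (11.3%) and in 0 of the 6. At the low end, 94.3% of genes had a run of at least the 12 bases of Fam151a and Spon2, and 54.2% one of at least the 14 bases of Stac. A match of the seed alone needs the sequence of the guide and was not tested.

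**Figure D1:**
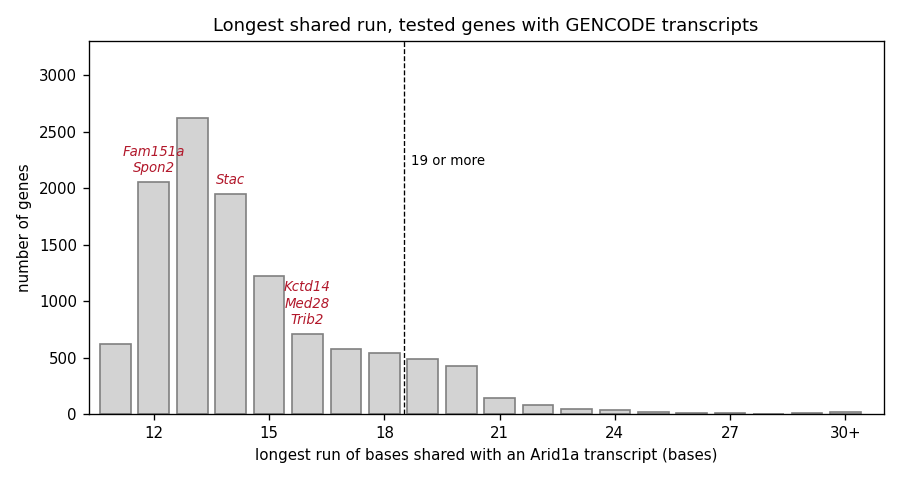
Number of tested genes (vertical axis) by the length, in bases, of the longest run that any of their transcripts shares with an Arid1a transcript (horizontal axis). Genes with runs under 11 bases are not drawn, runs of 30 or more are pooled in the last bar, and the dashed line marks 19 bases. The 6 genes, named in red above their bars, share 12 to 16 bases, and the median of all genes is 14.

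Arid1a itself was lower in all libraries with Arid1a siRNAs. Levels are given as CPM, read counts scaled to the library size with TMM factors. With EGF, the values for Arid1a were 145, 122 and 152 CPM after Arid1a siRNAs, against 308, 263 and 300.2 CPM with control siRNA and EGF. Without EGF it had 151, 157 and 127 CPM with Arid1a siRNAs, against 292 and 399.9 CPM with control siRNA. It fell by 1.06 ± 0.12 with EGF (log2, ± SE, 2.08-fold, adjusted p = 2.85e-05) and by 1.25 ± 0.13 without EGF (2.38-fold, adjusted p = 2.36e-05; edgeR quasi-likelihood test, two-sided, Benjamini-Hochberg over all genes). Many genes moved further than the target. Of the 13343 genes tested, 223 had a lower log2 change than Arid1a with EGF and 135 without. Kctd14, Fam151a, Med28 and Trib2, 4 of the 6 genes, were among them in both comparisons. The 6 were picked for large changes there, so nothing is read from that count. With EGF 507 genes rose and 254 fell more than 2-fold past the threshold of an adjusted p of 0.05, and without EGF 377 rose and 252 fell.

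None of the 6 was the single most changed gene of either comparison. Counted from the lowest log2 change, Kctd14 stood 28th with EGF and 12th without EGF, Fam151a 117th and 21st, Med28 44th and 30th, and Trib2 50th and 122nd. From the highest log2 change, Spon2 stood 24th with EGF and 98th without, and Stac 34th and 101st. The name "most changed" therefore holds only loosely, and the genes are described here as strongly changed ones.

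The reads behind the values were fewest for Fam151a, with 48 reads in its lowest library, and most for Med28, with 5050 in its highest. Libraries held 11947581 to 14143225 counted reads for Arid1a siRNAs with EGF, 10279763 to 15710575 for Arid1a siRNAs, 13547278 to 16796787 for control siRNA with EGF, and 14059719 to 19773007 for control siRNA. Acinar markers were high in every group, with 14 genes summing to between 13967 and 18265 CPM over all libraries, although the amylase gene Amy2a5 had 0 reads in every library. Ins1, Ins2, Sst, Lum, Cd3e and Cdh5, which mark islet, stromal, immune and endothelial cells, were also at 0 in all 11 libraries, while other markers of these cells were not. The 6 islet markers, 2 of them with reads in every library, summed to 795 to 840 CPM with Arid1a siRNAs and EGF, 626 to 768 CPM with Arid1a siRNAs, 1115 to 1160 CPM with control siRNA and EGF, and 702 to 752 CPM with control siRNA. Over all libraries the 7 fibroblast and stellate markers (6 with reads in every library) summed to 281 to 334 CPM, the 4 endothelial ones (3 with reads) to 38.6 to 55.3 CPM, and the 5 immune ones to 5.01 to 9.23 CPM. Summed levels of 7 ductal markers were 79.0 to 87.0 CPM with Arid1a siRNAs and EGF, 55.8 to 60.6 CPM with Arid1a siRNAs, 118 to 130 CPM with control siRNA and EGF, and 57.2 to 79.4 CPM with control siRNA, and the part of any of these markers in the results was not tested.

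In all 6 genes the libraries with Arid1a siRNAs and those with control siRNA did not overlap, with EGF or without it. The same was true of 57.6% of all genes with EGF and of 54.7% without, and since the choice rests on these comparisons nothing is read from that count. Over all genes, 46.9% were called with EGF (23.7% higher, 23.2% lower) and 38.9% without (18.8% higher, 20.1% lower). Of the calls without EGF 48.3% were higher, against 60.7% with upper-quartile scaling.

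**Figure D2:**
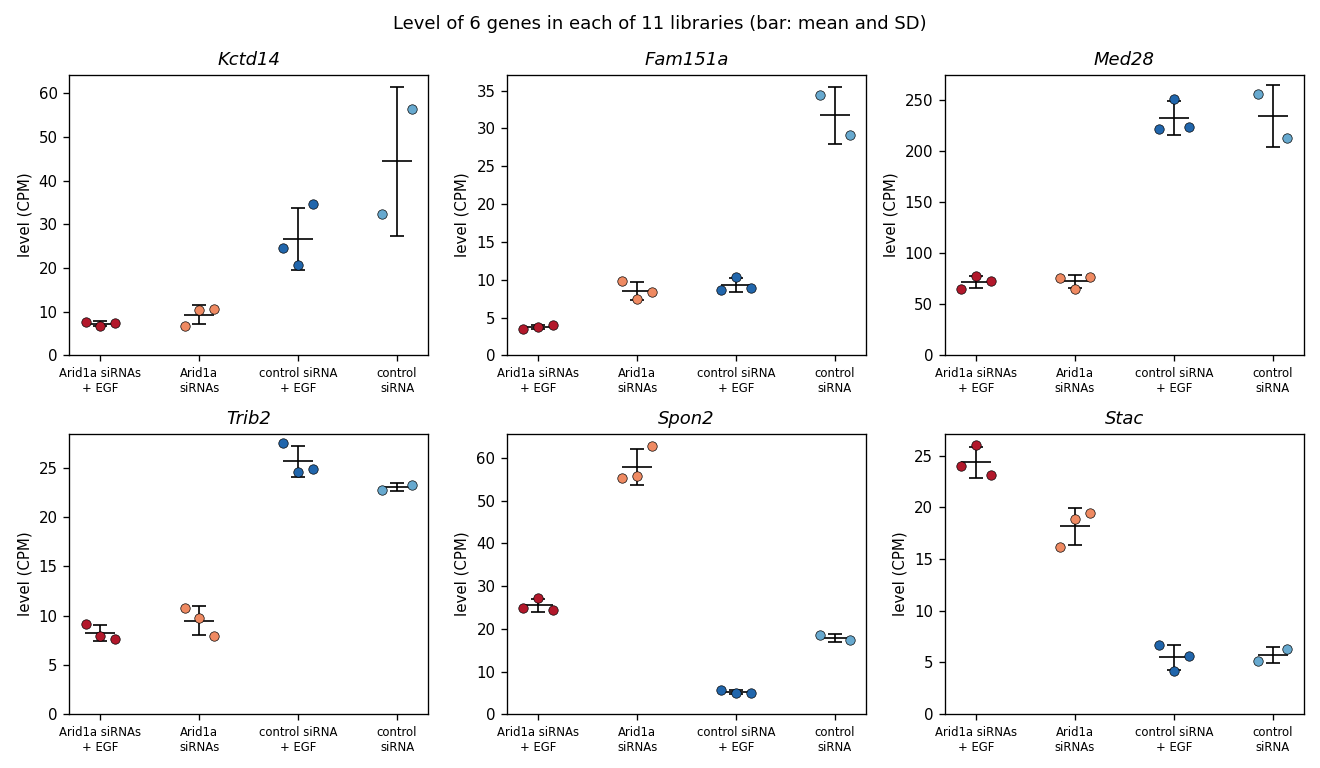
Level of each gene (CPM, vertical axis, from 0) in each library of the 4 groups (points), with the group mean and SD (bars). Med28 is at 65.2 to 77.5 CPM in the 6 libraries with Arid1a siRNAs, against 213 to 255 CPM in the 5 with control siRNA, while Spon2 and Fam151a also differ between EGF and vehicle.

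Among the 4 genes that were lower with Arid1a siRNAs, Med28 had the highest level, and its SD was 7.18% to 12.9% of the mean within groups. It had 65.4, 77.5 and 72.5 CPM with Arid1a siRNAs and EGF, against 221, 251 and 223 CPM with control siRNA and EGF. Without EGF it had 75.2, 65.2 and 76.7 CPM with Arid1a siRNAs, against 255 and 213 CPM with control siRNA. The 6 libraries with Arid1a siRNAs were thus all low and the 5 with control siRNA all high, whatever the EGF. The log2 change with Arid1a siRNAs was −1.69 ± 0.09 with EGF (3.23-fold lower) and −1.70 ± 0.10 without EGF (3.24-fold lower). Between these log2 changes the difference was 0.01 ± 0.13. Leaving out control siRNA replicate 1 or 2 gave −1.55 or −1.82 without EGF.

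The other Mediator genes moved less than Med28, which had been chosen for the size of its change. Of 32 other Mediator genes tested, 5 rose and 12 fell with Arid1a siRNAs in the presence of EGF, and 5 rose and 11 fell without EGF. Of all genes tested, 46.9% were called with EGF and 38.9% without. None of the 32 changed more than 2-fold in either comparison. Without EGF the falls numbered 6 and the rises 3 when Arid1a siRNAs replicate 2 or control siRNA replicate 1 was left out or only the compared groups were fitted (7 and 3 with the replicate block), and the falls numbered 6 with upper-quartile scaling. With EGF the rises numbered 3 without Arid1a siRNAs with EGF replicate 1 or 3 or control siRNA with EGF replicate 1 or 2, with DESeq2, with no filter on low counts and with the block. Their median log2 change was −0.17 with EGF and −0.15 without, where the medians of all genes were 0.00 and −0.01. The log2 changes of the 32 ran from −0.59 to 0.54 with EGF and from −0.52 to 0.42 without. Ccnc, the cyclin of the Mediator kinase module, fell by 0.59 ± 0.07 with EGF (adjusted p = 1.24e-05) and by 0.47 ± 0.08 without EGF (adjusted p = 0.000377). Med13l, which joins that module to the core, had a log2 change of −0.56 ± 0.15 with EGF (adjusted p = 0.00717) and of −0.36 ± 0.16 without EGF (adjusted p = 0.103). Med11, a subunit of the head, rose by 0.54 ± 0.11 with EGF (adjusted p = 0.000681) and by 0.42 ± 0.12 without EGF (adjusted p = 0.0107), a call lost without control siRNA replicate 2 (adjusted p = 0.121). Lap3, an aminopeptidase gene next to Med28, had log2 changes of −0.11 ± 0.05 with EGF (adjusted p = 0.0666) and 0.02 ± 0.05 without (adjusted p = 0.739). Fam184b, on the other side, had changes of −0.39 ± 0.17 (adjusted p = 0.0754) and −0.24 ± 0.20 (adjusted p = 0.381).

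**Figure D3:**
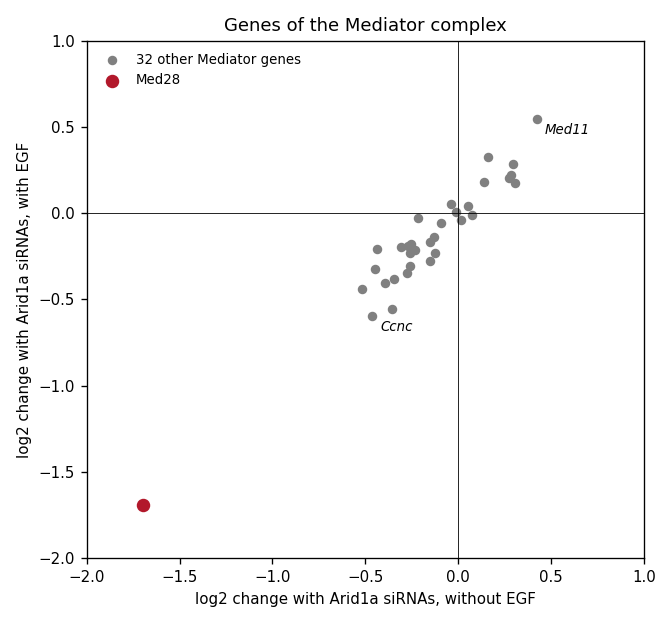
Log2 change with Arid1a siRNAs over control siRNA in Mediator genes, without EGF (horizontal axis) and with EGF (vertical axis); each point is a gene. Med28, in red, lies at −1.70 and −1.69, and the 32 other genes lie between −0.52 and 0.42 on the horizontal axis and between −0.59 and 0.54 on the vertical axis.

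Trib2 was lower with Arid1a siRNAs in both settings. Its levels were 9.16, 7.97 and 7.61 CPM with Arid1a siRNAs and EGF, against 27.5, 24.6 and 24.9 CPM with control siRNA and EGF. Without EGF they were 10.8, 9.71 and 7.92 CPM with Arid1a siRNAs, against 22.7 and 23.3 CPM with control siRNA. The libraries with Arid1a siRNAs lay at 7.61 to 10.8 CPM, all below the lowest control library. The log2 change was −1.63 ± 0.11 with EGF (3.10-fold lower) and −1.28 ± 0.12 without EGF (2.42-fold lower), a difference of −0.35 ± 0.17.

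Of 14 tested partners and substrates of Tribbles proteins and members of that family, 5 rose and 5 fell with Arid1a siRNAs in the presence of EGF, and 1 rose and 3 fell without EGF. The falls with EGF numbered 3 without control siRNA with EGF replicate 2, and those without EGF numbered 1 with upper-quartile scaling or with only the compared groups in the fit. Over all genes, 46.9% were called with EGF and 38.9% without. Cebpa, which encodes the substrate C/EBPα, fell by 0.49 ± 0.07 with EGF (adjusted p = 5.55e-05) and by 0.87 ± 0.08 without EGF (adjusted p = 1.78e-06). Its mean level was 52.1 ± 2.56 CPM with Arid1a siRNAs and EGF, 34.2 ± 1.34 CPM with Arid1a siRNAs, 73.5 ± 2.24 CPM with control siRNA and EGF, and 62.3 ± 7.23 CPM with control siRNA (SD). Cebpb rose by 0.70 ± 0.13 with EGF (adjusted p = 0.000612) and had a log2 change of 0.10 ± 0.16 without EGF (adjusted p = 0.632). Trim21, an antibody receptor with ubiquitin ligase activity that is also induced by interferon, rose by 0.69 ± 0.16 with EGF (adjusted p = 0.00266) and by 1.04 ± 0.18 without EGF (adjusted p = 0.000336).

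Kctd14 had the lowest log2 change of the 6 without EGF, and its SD in the control libraries was 38.3% of the mean. It had 7.61, 6.65 and 7.53 CPM with Arid1a siRNAs and EGF, against 24.6, 20.8 and 34.6 CPM with control siRNA and EGF. Without EGF it had 6.81, 10.5 and 10.7 CPM with Arid1a siRNAs, against 32.4 and 56.5 CPM with control siRNA. Its group means were 7.26 ± 0.53 CPM with Arid1a siRNAs and EGF, 9.34 ± 2.19 CPM with Arid1a siRNAs, 26.6 ± 7.13 CPM with control siRNA and EGF, and 44.5 ± 17.0 CPM with control siRNA (SD). The control libraries varied most, and none of them reached down to the libraries with Arid1a siRNAs. The log2 change was −1.87 ± 0.27 with EGF (3.65-fold lower) and −2.22 ± 0.27 without EGF (4.66-fold lower), a difference of 0.35 ± 0.39. Without EGF it became −2.57 when control siRNA replicate 1 was left out and −1.78 when replicate 2 was left out.

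Other KCTD genes moved less than Kctd14. Among 19 tested, 4 rose and 5 fell with Arid1a siRNAs and EGF, 3 rose and 7 fell without EGF, and none changed more than 2-fold. The rises with EGF numbered 2 without Arid1a siRNAs with EGF replicate 1. These counts stand beside 46.9% of all genes called with EGF and 38.9% without. Kctd12, an auxiliary subunit of GABA-B receptors, fell by 0.69 ± 0.10 with EGF (adjusted p = 4.60e-05) and by 0.65 ± 0.10 without EGF (adjusted p = 0.000230). Kctd10 fell by 0.61 ± 0.06 with EGF (adjusted p = 9.27e-07) and by 0.67 ± 0.06 without EGF (adjusted p = 1.92e-06). Kctd7 rose by 0.55 ± 0.07 with EGF (adjusted p = 1.32e-05) and by 0.37 ± 0.07 without EGF (adjusted p = 0.00118). Of the neighbours of Kctd14, Ints4, an Integrator subunit, had log2 changes of −0.21 ± 0.06 with EGF (adjusted p = 0.0126) and −0.20 ± 0.07 without EGF (adjusted p = 0.0348). The call with EGF was lost without Arid1a siRNAs with EGF replicate 2 or control siRNA with EGF replicate 3, and that without EGF was lost without Arid1a siRNAs replicate 1 or 2 or control siRNA replicate 2, with upper-quartile scaling and with only the compared groups in the fit. Thrsp, on the other side, had log2 changes of 0.22 ± 0.19 with EGF (adjusted p = 0.365) and −0.74 ± 0.19 without EGF (adjusted p = 0.00667, and 0.0667 without control siRNA replicate 2).

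Fam151a was lower with each agent. Its levels were 3.45, 3.80 and 4.01 CPM with Arid1a siRNAs and EGF, and 9.79, 7.43 and 8.44 CPM with Arid1a siRNAs. They were 8.62, 10.4 and 8.92 CPM with control siRNA and EGF, and 34.4 and 29.1 CPM with control siRNA. In CPM the groups given only the Arid1a siRNAs or only EGF overlapped at a middle level. They lay between the group given both and the group given neither. In the authors' FPKM they did not overlap, at 13.4 to 15.7 with Arid1a siRNAs and 16.8 to 21.6 with control siRNA and EGF. The log2 change with Arid1a siRNAs was −1.32 ± 0.15 with EGF (2.49-fold lower) and −1.91 ± 0.13 without EGF (3.76-fold lower), a difference of 0.59 ± 0.20. With the authors' FPKM the change with EGF moved by more than 1 SE, and the smallest alternative value was −1.08. In cells given both agents the level was 8.48-fold lower than in cells given neither (log2 −3.08). Its relative Fam151b had log2 changes with Arid1a siRNAs of 0.20 with EGF (adjusted p = 0.530) and −0.05 without (adjusted p = 0.885).

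Fam151a overlaps Acot11, a thioesterase gene, and Mroh7, listed under the older symbol Heatr8, in the RefSeq annotation of GRCm38.p6. The library kit does not mark strand, so reads of overlapping genes on opposite strands cannot be told apart. Acot11, with 17 to 117 reads per library, had log2 changes with Arid1a siRNAs of −0.02 ± 0.27 with EGF (adjusted p = 0.950) and −1.18 ± 0.24 without EGF (adjusted p = 0.00134, and 0.0545 without control siRNA replicate 1). Heatr8, with 9 to 88 reads, had changes of −0.21 ± 0.28 with EGF (adjusted p = 0.564) and −0.75 ± 0.21 without EGF (adjusted p = 0.0104, and 0.0654 without control siRNA replicate 1). Fam151a, with 48 to 680 reads, had changes of −1.32 with EGF and −1.91 without EGF. The part of Acot11 and Heatr8 in the values of Fam151a was not tested.

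Spon2 was higher with Arid1a siRNAs. It had 24.9, 27.3 and 24.5 CPM with Arid1a siRNAs and EGF, against 5.72, 4.87 and 5.07 CPM with control siRNA and EGF. Without EGF it had 55.2, 55.8 and 62.8 CPM with Arid1a siRNAs, against 18.5 and 17.3 CPM with control siRNA. The 4 groups held 4 separate levels with no overlap between any of them. The log2 change with Arid1a siRNAs was 2.29 ± 0.10 with EGF (4.90-fold) and 1.69 ± 0.10 without EGF (3.23-fold), a difference of 0.60 ± 0.14. In cells given both agents Spon2 was 1.43-fold above cells given neither (log2 0.51).

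Of 15 genes of spondins, thrombospondins and their receptors, 7 were tested. With EGF 1 rose and 2 fell with Arid1a siRNAs, and without EGF 1 rose and 1 fell. Each of these counts lay at 1 or 2 when a library was left out. Among all genes, 46.9% were called with EGF and 38.9% without. Thbs3, a matrix glycoprotein of the thrombospondin family, rose by 0.89 ± 0.13 with EGF (adjusted p = 4.66e-05) and by 0.87 ± 0.13 without EGF (adjusted p = 0.000138). Thbs4, another thrombospondin, fell by 1.02 ± 0.18 with EGF (adjusted p = 0.000600) and by 1.27 ± 0.19 without EGF (adjusted p = 0.000309). These 2 thrombospondins thus moved in opposite directions. Itgb1, an integrin subunit common to many matrix receptors, had log2 changes of −0.14 ± 0.05 with EGF (adjusted p = 0.0270) and −0.06 ± 0.05 without EGF (adjusted p = 0.400). The first of these calls was lost with upper-quartile scaling and, with adjusted p of 0.0565 to 0.111, without any of the 3 libraries with Arid1a siRNAs and EGF or without control siRNA with EGF replicate 2 or 3. Of the neighbours of Spon2, Ywhah fell by 0.28 ± 0.05 with EGF (adjusted p = 0.000581) and by 0.48 ± 0.06 without EGF (adjusted p = 2.09e-05). Ctbp1, on the other side, had an adjusted p of 0.991 with EGF and of 0.225 without EGF. The nearest tested genes of Trib2 that do not overlap it (Lpin1 and Fam84a) and those of Fam151a (Ttc4 and Ssbp3) passed the test in neither comparison, with log2 changes from −0.17 to 0.21.

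Stac was also higher with Arid1a siRNAs. Its levels were 23.9, 26.0 and 23.1 CPM with Arid1a siRNAs and EGF, against 6.66, 4.19 and 5.61 CPM with control siRNA and EGF. Without EGF they were 16.1, 18.9 and 19.5 CPM with Arid1a siRNAs, against 5.16 and 6.30 CPM with control siRNA. The control libraries overlapped between EGF and vehicle, whereas those with Arid1a siRNAs did not. The log2 change with Arid1a siRNAs was 2.16 ± 0.14 with EGF (4.47-fold) and 1.68 ± 0.16 without EGF (3.21-fold), a difference of 0.48 ± 0.22.

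Of 20 genes for STAC proteins and voltage-gated calcium channel subunits, 13 were tested, of which 3 rose and 1 fell with Arid1a siRNAs in the presence of EGF, and 1 rose and 2 fell without EGF. With a library left out, 3 rose and 0 to 1 fell with EGF, and 1 to 2 rose and 1 to 2 fell without EGF. The share of all genes called was 46.9% with EGF and 38.9% without. Cacna1a, the pore subunit of P/Q-type channels, rose by 1.02 ± 0.08 with EGF (adjusted p = 2.01e-07) and by 0.79 ± 0.09 without EGF (adjusted p = 1.14e-05). Cacnb1, a beta subunit that brings channels to the membrane, rose by 1.03 ± 0.20 with EGF (adjusted p = 0.000676) and had a log2 change of 0.44 ± 0.20 without EGF (adjusted p = 0.104). Cacna1g, the pore of a T-type channel, had log2 changes of 0.19 ± 0.27 with EGF (adjusted p = 0.663) and −0.87 ± 0.26 without EGF (adjusted p = 0.0166, but 0.0515 without Arid1a siRNAs replicate 2 and 0.172 without control siRNA replicate 2). Of the neighbours of Stac, Pdcd6ip fell by 0.25 ± 0.05 with EGF (adjusted p = 0.000624) and by 0.28 ± 0.05 without EGF (adjusted p = 0.000884). Dclk3, with 1 to 16 reads per library, had log2 changes of 0.86 ± 0.57 with EGF (adjusted p = 0.274) and 1.44 ± 0.38 without EGF (adjusted p = 0.00754), a call lost with DESeq2 and without control siRNA replicate 1.

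**Figure D4:**
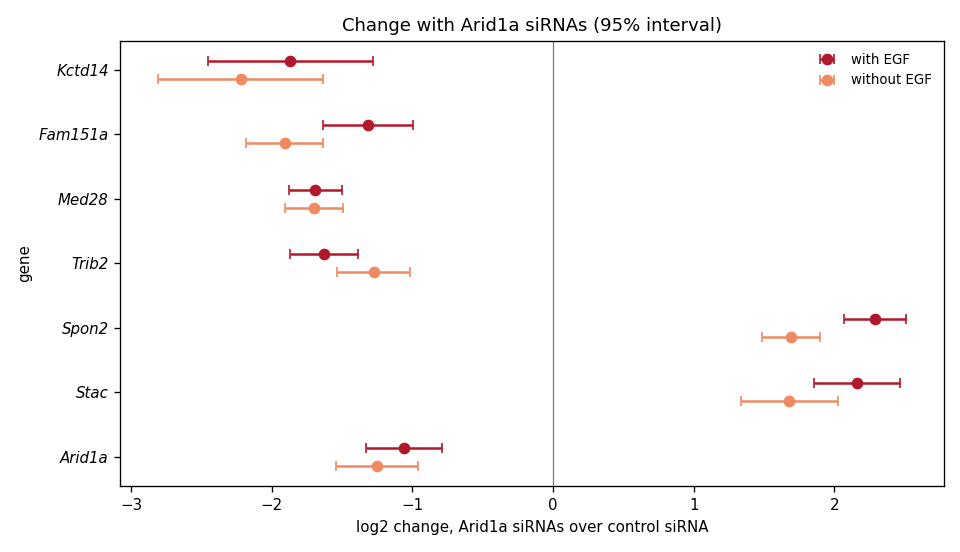
Log2 change with Arid1a siRNAs over control siRNA (horizontal axis) for the 6 genes and Arid1a (vertical axis), with EGF (dark) and without EGF (light); bars are 95% intervals from the fit over all genes, and the line marks 0. Kctd14, Fam151a, Med28 and Trib2 lie at −1.28 or lower and Spon2 and Stac at 1.68 or higher, in the comparisons on which they were chosen.

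EGF changed 3 of the 6 genes in each siRNA setting. With Arid1a siRNAs, Fam151a and Spon2 fell and Stac rose with EGF, where 23.4% of all genes were called (13.0% higher, 10.4% lower). With control siRNA, Kctd14, Fam151a and Spon2 fell with EGF, where 35.6% of all genes were called (16.8% higher, 18.8% lower). Leaving out each library in turn gave 2 to 3 called genes in either setting. The libraries with and without EGF did not overlap in 3 of the 6 genes with Arid1a siRNAs (Fam151a, Spon2 and Stac), as in 38.7% of all genes, and in 3 with control siRNA (Fam151a, Trib2 and Spon2), as in 55.5% of all genes. The difference between both EGF responses, which is made from the comparisons used for the choice and is untested for the 6 genes, was called in 0.944% of all genes (0.562% higher, 0.382% lower).

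Fam151a and Spon2 carried the strongest EGF responses. Fam151a fell by 1.17 ± 0.15 with Arid1a siRNAs (2.26-fold, adjusted p = 7.27e-05) and by 1.77 ± 0.12 with control siRNA (3.41-fold, adjusted p = 8.89e-08). Spon2 fell by 1.18 ± 0.08 with Arid1a siRNAs (2.26-fold, adjusted p = 1.83e-07) and by 1.78 ± 0.11 with control siRNA (3.43-fold, adjusted p = 3.35e-08). In every library given EGF both genes were lower than in every library of the same siRNA given vehicle. In read counts the 2 genes shared the size of their EGF response, while their levels moved in opposite directions with the Arid1a siRNAs. Under alternative fits, with Arid1a siRNAs, Fam151a changed with EGF by −1.28 to −0.77 and Spon2 by −1.23 to −1.12. Mean FPKM with Arid1a siRNAs were 14.7 with vehicle and 8.18 with EGF for Fam151a, and 25.7 and 11.3 for Spon2. Of the overlapping genes, Heatr8 fell with EGF by 1.25 ± 0.25 with Arid1a siRNAs (adjusted p = 0.00220) and by 1.79 ± 0.23 with control siRNA (adjusted p = 2.97e-05). Acot11 had a log2 change with EGF of −0.23 ± 0.27 with Arid1a siRNAs (adjusted p = 0.595) and fell by 1.38 ± 0.24 with control siRNA (adjusted p = 0.000402).

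Kctd14 fell by 0.73 ± 0.24 with EGF in cells with control siRNA (adjusted p = 0.0352). The groups overlapped, and the call was lost without control siRNA replicate 2 (log2 −0.29, adjusted p = 0.358) and in 4 further fits that each left out 1 library, with adjusted p of 0.0513 to 0.106. These were the fits without Arid1a siRNAs replicate 2, without Arid1a siRNAs with EGF replicate 3, and without control siRNA with EGF replicates 1 and 2. It was also lost with no filter on low counts (adjusted p = 0.122). With Arid1a siRNAs the log2 change with EGF was −0.38 ± 0.30 (adjusted p = 0.406).

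Stac rose by 0.42 ± 0.12 with EGF in cells with Arid1a siRNAs (1.34-fold, adjusted p = 0.0241), in libraries that did not overlap. The adjusted p was 0.0553 with the replicate block and 0.0588 from the authors' FPKM with a pseudocount of 0.1. It was 0.0566 to 0.108 without Arid1a siRNAs replicate 1 or 2 or Arid1a siRNAs with EGF replicate 1 or 2. With control siRNA the log2 change was −0.06 ± 0.18 (adjusted p = 0.834, 95% interval −0.45 to 0.33).

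No response to EGF was called for Med28 or Trib2. Med28 had a log2 change with EGF of −0.01 ± 0.09 with Arid1a siRNAs (adjusted p = 0.964, 95% interval −0.20 to 0.19) and of −0.02 ± 0.09 with control siRNA (adjusted p = 0.915, 95% interval −0.22 to 0.18). For Trib2 it was −0.20 ± 0.13 with Arid1a siRNAs (adjusted p = 0.292) and 0.16 ± 0.11 with control siRNA (adjusted p = 0.294), where the libraries did not overlap.

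**Figure D5:**
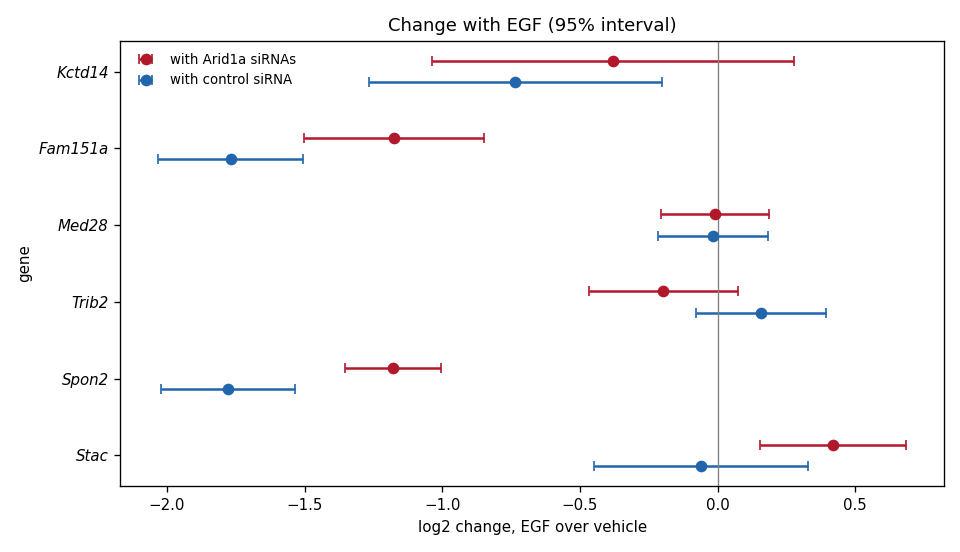
Log2 change with EGF over vehicle (horizontal axis) for the 6 genes (vertical axis), with Arid1a siRNAs (red) and with control siRNA (blue); bars are 95% intervals from the fit over all genes, and the line marks 0. Fam151a and Spon2 lie between −1.78 and −1.17 in both settings, Med28 lies at −0.01 and −0.02, and Stac lies above 0 with Arid1a siRNAs.

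Promoters were compared between Med28, which had no called response to EGF, and Fam151a, which had a strong one. The RefSeq promoter table (300 bases around each gene's start, GRCm38.p6) held 4 of the 6 genes, Fam151a, Med28, Stac and Trib2. The first of these sequences is chr5:45519979-45520278 on the plus strand, with capitals marking an AP-1 motif, the site of Fos and Jun factors, and an E-box. The second is chr4:106733665-106733964 on the plus strand, with neither the AP-1 motif nor this E-box. Only the CACGTG form of the E-box was searched, and other forms are not marked.
Med28: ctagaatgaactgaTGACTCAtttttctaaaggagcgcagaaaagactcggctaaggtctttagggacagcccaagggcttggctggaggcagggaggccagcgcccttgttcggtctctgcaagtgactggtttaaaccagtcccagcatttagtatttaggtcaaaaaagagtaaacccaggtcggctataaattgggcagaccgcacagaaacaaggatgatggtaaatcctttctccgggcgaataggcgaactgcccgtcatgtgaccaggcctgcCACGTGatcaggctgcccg
Fam151a: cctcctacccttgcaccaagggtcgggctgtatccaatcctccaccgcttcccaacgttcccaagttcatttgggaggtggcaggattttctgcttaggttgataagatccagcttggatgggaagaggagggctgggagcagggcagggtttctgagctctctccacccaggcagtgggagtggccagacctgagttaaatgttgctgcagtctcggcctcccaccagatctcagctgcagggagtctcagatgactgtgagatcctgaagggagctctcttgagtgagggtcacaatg
The AP-1 motif (TGANTCA) starts at base −236 of the Med28 promoter, counted from the start of the gene, and is present in 7.81% of the 32851 promoters of the table, both strands searched. The E-box (CACGTG) starts at base 31 and is present in 7.15%. A TATAAA was found at base −61 of Med28 and in 13.6% of all promoters. Fam151a held none of these, nor the GC box GGGCGG, which 35.7% of promoters held and which was found 4 times in Stac and 2 times in Trib2. Counts of CpG were 12 in Med28, 4 in Fam151a, 29 in Stac and 40 in Trib2, against a median of 7. These matches describe the letters of a window and say nothing of binding.

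The authors' FPKM values, which are per length and so meant for comparing levels of different genes, were used for 3 groups. For Fam151a they were higher beside its CPM than transcript length would give. With Arid1a siRNAs and EGF it had 3.76 CPM and 8.18 FPKM, with a transcript of 1923 bases. Spon2, with a longest transcript of 2045 bases, had 25.5 CPM and 11.3 FPKM there. The place of Fam151a in the orders below is therefore uncertain, and the cause was not tested. With Arid1a siRNAs and EGF the order of the mean FPKM was Med28 at 14.8 ± 1.26, Spon2 at 11.3 ± 0.695, Stac at 9.43 ± 0.624, Fam151a at 8.18 ± 0.797, Kctd14 at 3.04 ± 0.185 and Trib2 at 1.85 ± 0.197 (SD, n = 3). With Arid1a siRNAs alone the order was Spon2 at 25.7 ± 1.97, Med28 at 14.97 ± 1.33, Fam151a at 14.7 ± 1.18, Stac at 7.02 ± 0.694, Kctd14 at 3.93 ± 0.926 and Trib2 at 2.14 ± 0.320 FPKM. With control siRNA and EGF it was Med28 at 47.9 ± 3.24, Fam151a at 18.5 ± 2.68, Kctd14 at 11.1 ± 3.08, Trib2 at 5.77 ± 0.357, Spon2 at 2.30 ± 0.201 and Stac at 2.103 ± 0.477 FPKM. Neighbours in these orders whose libraries overlapped were Stac and Fam151a with Arid1a siRNAs and EGF, Med28 and Fam151a with Arid1a siRNAs alone, and Spon2 and Stac with control siRNA and EGF. Spon2 and Stac stood above Kctd14 and Trib2 in both groups with Arid1a siRNAs and below them with control siRNA and EGF.

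For each gene the closest patterns were sought by Pearson's correlation of log2 CPM over the 11 libraries, among 9456 genes. The libraries fall into 4 groups, so these values mostly compare group means. Med28 was most like Impa1 (r = 0.996), Ykt6 (r = 0.995) and Tmeff1 (r = 0.994). Impa1, an inositol monophosphatase gene, had log2 changes of −0.59 ± 0.05 with Arid1a siRNAs and EGF and −0.59 ± 0.06 without EGF, given with no test because it was picked for its likeness to Med28. Trib2 was most like Tmx3 (r = 0.991), Mef2c (r = 0.989) and Bmpr1a (r = 0.989). Kctd14 was most like Epb4.1 (r = 0.989), Slc39a11 (r = 0.989) and Trim35 (r = 0.982). Fam151a was most like Fgfr2 (r = 0.989), Mkrn1 (r = 0.982) and Maf (r = 0.980).

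Fgfr2, the receptor for several fibroblast growth factors, had log2 changes of −1.55 ± 0.08 with Arid1a siRNAs and EGF and −2.09 ± 0.08 without EGF. It was picked for its likeness to Fam151a, so these values are a description as well. Spon2 was most like Arhgef19 (r = 0.997), Psap (r = 0.997) and Abtb1 (r = 0.994). Stac was most like Lpcat3 (r = 0.987), Smtn (r = 0.987) and Sardh (r = 0.987).

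Genes that respond to double-stranded RNA and interferon moved with the same comparison as the 6 genes. Of 24 such genes, 18 rose and 6 did not pass the test with Arid1a siRNAs, in the presence of EGF and without it alike. Their median log2 change was 1.07 with EGF and 1.01 without. Without control siRNA replicate 1 the count of rises without EGF was 13. Over all genes, 23.7% were called higher with Arid1a siRNAs in the presence of EGF and 18.8% without it. The list was drawn up with earlier results of these data known. Its counts and adjusted p are therefore not independent of these data. EGF lowered 13 of the 24 with Arid1a siRNAs (8 without Arid1a siRNAs replicate 2) and 12 with control siRNA (7 without control siRNA replicate 2). Spon2 had the same directions in these comparisons, higher with Arid1a siRNAs and lower with EGF. Stac did not share them, since with Arid1a siRNAs it rose by 0.42 with EGF, where 0 of the 24 were called higher. Irf7, a transcription factor of the interferon response, stood at 26.2 ± 2.50 CPM with Arid1a siRNAs and EGF, 43.9 ± 4.26 CPM with Arid1a siRNAs, 6.83 ± 0.44 CPM with control siRNA and EGF, and 10.9 ± 0.93 CPM with control siRNA (SD). It rose by 1.94 ± 0.11 with EGF (adjusted p = 1.27e-08) and by 2.02 ± 0.12 without EGF (adjusted p = 3.21e-08). Ifit1, which binds foreign RNA, rose by 2.17 ± 0.20 with EGF (adjusted p = 8.67e-07) and by 1.94 ± 0.20 without EGF (adjusted p = 4.24e-06). Mx2, an antiviral GTPase, rose by 1.70 ± 0.19 with EGF (adjusted p = 4.29e-06) and by 2.03 ± 0.19 without EGF (adjusted p = 1.74e-06). These 3 genes are named because their called changes were the largest of the 24. Their rises were near those of Spon2 and Stac in size, while the medians of the 24 were lower, at 1.07 and 1.01. The part of these genes in the changes of the 6 was not tested.

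Genes of the RNA interference machinery moved in both directions. Of 13 tested, 3 rose and 4 fell with Arid1a siRNAs in the presence of EGF, and 2 rose and 3 fell without EGF. The counts without EGF ran from 0 to 3 rises and from 1 to 3 falls when a library was left out. Their median log2 change was −0.02 with EGF and 0.01 without. Calls over all genes made up 46.9% with EGF and 38.9% without. Eif2c4, the older symbol of the Argonaute gene Ago4, rose by 0.78 ± 0.18 with EGF (adjusted p = 0.00253) and had a change of 0.47 ± 0.17 without EGF (adjusted p = 0.0432). That call was lost, with adjusted p of 0.0511 to 0.291, without Arid1a siRNAs replicate 1 or 2, control siRNA replicate 1 or control siRNA with EGF replicate 3. Eif2c1, the older symbol of Ago1, rose by 0.51 ± 0.09 with EGF (adjusted p = 0.000460) and by 0.39 ± 0.10 without EGF (adjusted p = 0.00837, and 0.124 without control siRNA replicate 1). Tnrc6b, a partner of Argonaute in silencing, had log2 changes of 0.53 ± 0.18 with EGF (adjusted p = 0.0287, and 0.0878 to 0.101 without Arid1a siRNAs with EGF replicate 1 or 3 or control siRNA with EGF replicate 2) and 0.46 ± 0.20 without EGF (adjusted p = 0.0882).

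Other subunits of the SWI/SNF complexes changed less than Arid1a. Of 24 tested, 4 rose and 7 fell with Arid1a siRNAs in the presence of EGF, 2 rose and 7 fell without EGF, and none changed more than 2-fold. The falls without EGF numbered 3 with upper-quartile scaling or with only the compared groups in the fit. These counts are near the share of all genes called, 46.9% with EGF and 38.9% without. Dpf2, a BAF subunit that reads histone marks, fell by 0.65 ± 0.06 with EGF (adjusted p = 9.21e-07) and by 0.65 ± 0.07 without EGF (adjusted p = 4.10e-06). Bcl7a, another BAF subunit, fell by 0.39 ± 0.06 with EGF (adjusted p = 0.000107) and by 0.52 ± 0.06 without EGF (adjusted p = 2.50e-05). Smarcd3 rose by 0.80 ± 0.13 with EGF (adjusted p = 0.000154) and by 0.64 ± 0.13 without EGF (adjusted p = 0.00178).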

How the data were processed

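RNA of 11 libraries was prepared with a TruSeq v2 kit. Per the submitters' processing notes, the authors used TopHat2 2.1.1, HTSeq 0.9.1, Cuffnorm 2.2.1.2, Cuffdiff 2.2.1.5 and build mm9. The deposited tables hold raw counts of reads per symbol, and a further deposited table holds FPKM values, of which 9 columns were used and 3 control columns that could not be matched to a library were not. The members and gene lists were chosen with earlier results of these data known, so counts and adjusted p of listed genes are not independent of that knowledge.

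Counts were analysed with edgeR 4.0.16 (R 4.3.3): filterByExpr (minimum count 10, minimum total 15), TMM factors, 4 group means over 11 libraries, a robust quasi-likelihood test, Benjamini-Hochberg adjustment over 13343 genes, and calls at an adjusted p under 0.05. The fit was tested on simulated data. CPM are TMM-scaled. Alternatives were DESeq2 1.42.0, limma-voom 3.58.1, other scalings, no filter, only the compared groups, the replicate block, left-out libraries and limma on log2(FPKM + 0.1 or 1).

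From each list up to 3 genes called with Arid1a siRNAs, with the largest changes, are named, and for each member the 3 genes with the highest correlation at a mean log2 CPM of at least 3, except clone-type symbols. Neighbouring genes were added. Deviations from group means of same-numbered libraries correlated at 0.32 to 0.61 between both EGF groups, and at −0.70 to 0.63 in the other comparisons. For libraries with different numbers the range was −0.47 to 0.24 between both EGF groups, below all same-numbered pairs, and −0.63 to 0.70 in the other comparisons. Deviations within a group of 2 or 3 libraries are tied to each other. The labels do not say that a number marks a shared batch. Whether numbers pair libraries is therefore not settled, and the main fit used no pairing. Libraries of a group differed by 1.57 to 10.9 in chi-square per degree of freedom and were counted as separate samples.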

Additional observations from a re-analysis of the deposited data

Results flagged for a closer look

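Fgfr2, 1 of the 3 genes most like Fam151a in pattern, differed between siRNA settings in its response to EGF. It fell by 1.19 ± 0.09 with EGF in cells with Arid1a siRNAs and by 1.72 ± 0.07 with EGF in cells with control siRNA (log2, ± SE). The difference was 0.53 ± 0.12 (edgeR interaction term, adjusted p = 0.0455), and 0.944% of all genes passed that test. Of 17 alternative fits, 16 gave an adjusted p over the threshold, up to 0.151, with the same direction. Fgfr2 was picked for its likeness over these libraries to Fam151a, a gene chosen on the comparisons from which this difference is made, so its adjusted p is not independent of that choice.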

How the results depend on the processing

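Of 228 values of the 6 genes under alternative fits of the tested EGF comparisons, 216 kept their side of the threshold and 12 lost a call, and 9, none of them called, changed sign. Of 330 values in the untested comparisons, 315 moved by no more than 1 SE and 15 moved further, and 11, all of the difference between EGF responses, changed sign. The 12 lost calls belong to Kctd14 with EGF and control siRNA and to Stac with EGF and Arid1a siRNAs. Genes called numbered 6261 for Arid1a siRNAs with EGF (5382 to 6549 with a library left out), 5190 without EGF (3904 to 5279), 3119 for EGF with Arid1a siRNAs (2217 to 3399) and 4744 for EGF with control siRNA (3648 to 5039). The difference between EGF responses was called in 126 genes, in 56 with the replicate block, and in 55 to 153 with a library left out. The cause was not tested. The block changed no call of the 6 genes other than that of Stac. Only 2 control libraries without EGF limit every comparison that uses them, and CPM depend on the depth of each library. FPKM could not be used for comparisons with those libraries.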
